A study of Homo sapiens with 60 samples.

Results

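The AP-1 transcription factor genes were followed as a family of 9, chosen by name: FOS, FOSB, FOSL1 and FOSL2 of the FOS family, JUN, JUNB and JUND of the JUN family, and ATF3 and BATF3 of the ATF and BATF families. All 9 are listed under these symbols in both deposited tables, among 19712 genes. The values came from RNA sequencing of 4 human lung cancer cell lines with mutant EGFR (HCC827, HCC2935, H1975 and PC9), each in 5 arms of 3 replicates, which gives 60 libraries in 20 groups. DMSO libraries were cells grown without drug and given the solvent for 24 h, and acute libraries were cells given 500 nM osimertinib, an inhibitor of mutant EGFR, for 24 h. DTP libraries were drug-tolerant persisters, the cells left after 21 days in 500 nM osimertinib. Short washout libraries were persisters kept without drug for 24 h, and long washout libraries were persisters kept without drug for 7 days in PC9, 4 days in HCC827, 3 days in H1975 and 10 days in HCC2935. The length of the long washout thus differs with the line, and the effects of line and length cannot be told apart in that arm. No arm held cells kept for 21 days without drug. In the DTP and washout arms, the effects of drug and of time in culture thus cannot be told apart against DMSO. Each line stands for a single tumour, and fewer cells of a kind and less RNA per cell cannot be told apart in such bulk libraries. The labels number the replicates and do not say whether they came from separate cultures, so that p-values measure the spread between these libraries, and the acute, DTP and long washout comparisons share their DMSO libraries.

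AP-1 is a pair of basic leucine zipper proteins, most often a FOS protein with a JUN protein, that binds a short palindromic DNA element. FOS proteins cannot bind as pairs of their own kind and need a JUN partner, while JUN proteins also pair with each other, and ATF3 and BATF3 pair with JUN proteins. FOS, FOSB, JUN, JUNB and ATF3 are immediate-early genes, switched on within minutes by growth factor or stress signals and soon switched off again. FOSL1 depends on sustained ERK signalling, the pathway that EGFR drives in these lines, and JUND is made more steadily.

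On GRCh38 in GENCODE release 29, the members lie on 5 chromosomes, with FOS at chr14:75278774-75282230 (plus strand), FOSL1 at chr11:65892049-65900573 (minus strand) and FOSL2 at chr2:28392448-28417312 (plus strand). JUN, ATF3 and BATF3 share chromosome 1, with JUN at chr1:58780788-58784327 (minus strand), ATF3 at chr1:212565334-212620777 (plus strand) and BATF3 at chr1:212686418-212699985 (minus strand). FOSB, JUNB and JUND share chromosome 19, with FOSB at chr19:45467995-45475179 (plus strand), JUNB at chr19:12791496-12793315 (plus strand) and JUND at chr19:18279760-18281622 (minus strand). JUN, JUNB and JUND each have a single exon, BATF3 has 3 and the other 5 have 4 in their longest listed transcript. FOSB overlaps ERCC1 and JUNB overlaps HOOK2 on the opposite strand, FOSL2 overlaps the antisense transcript FLJ31356 and a transcript within its intron, and FOSL1 has 1 named pseudogene, so that counts of these 4 may hold reads of a neighbour or copy.

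RefSeq promoter windows of GRCh38.p14, 250 bases before the transcription start and 50 after it, were found for 7 members, and 6 stretches of 30 bases are shown because they hold the elements through which AP-1 genes are known to be controlled. Capitals mark the match, searched on both strands. The first 3 hold a TATA box (TATAAA), which starts 33, 30 and 31 bases before the start of FOS, FOSB and JUNB.

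FOS, chr14:75278783-75278812, plus strand: taaaacgcttgtTATAAAagcagtggctgc
FOSB, chr19:45467954-45467983, plus strand: gggtcccgggcaTATAAAtacaggctggcg
JUNB, chr19:12791443-12791472, plus strand: tgactagcgcggTATAAAggcgtgtggctc
JUN, chr1:58784096-58784125, minus strand: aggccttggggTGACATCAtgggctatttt
JUND, chr19:18281804-18281833, minus strand: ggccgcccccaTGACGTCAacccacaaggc
FOSL2, chr2:28392851-28392880, plus strand: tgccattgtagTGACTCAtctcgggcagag
JUN holds TGACATCA, the variant element known from its promoter, 67 bases before its start, and JUND holds the cAMP response element TGACGTCA 200 bases before it. FOSL2 holds a TPA response element (TGANTCA, the AP-1 site) that begins 4 bases after its start. The RefSeq starts differ from those of GENCODE, so that a window can lie inside the gene span given above. Over all 35116 windows in the table, 11.5% hold a TATA box, 7.71% TGANTCA, 1.85% TGACGTCA and 2.61% TGACATCA. A TATA box also lies 230 bases before the start of ATF3. None of the 7 windows holds a CArG box, the element of serum response factor, which 1.29% of all windows hold. None of them holds TGATGNAA, a core of the ATF4 element, which 3.62% hold. Bases outside the windows, such as those further upstream, were not searched. The lack of a match thus does not show that these genes lack either element.

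A library held between 17.7 and 49.1 M estimated counts, with line medians of 40.2 M in PC9, 42.9 M in H1975, 19.7 M in HCC827 and 21.6 M in HCC2935. The epithelial genes EPCAM, KRT8, KRT18, KRT19 and CDH1 had a level of 1 TPM (transcript abundance corrected for length and depth) or more in all 60 libraries, and in DTPs all 5 fell in HCC827, 4 in HCC2935 and 3 in H1975, while in PC9 2 fell and 2 (KRT19 and CDH1) rose. Of 9 markers of blood, endothelial and fibroblast cells, CD3E reached 0.246 TPM at most and VWF 1.07 TPM, while CD68 and COL1A1 were at 1 TPM or more in every library, with highest values of 175 and 167 TPM, and CDH5 reached 21.1 TPM. Of these marker genes, between 1 and 4 of the 6 to 8 tested rose and 0 to 2 fell against DMSO in a line and arm, and their part in the AP-1 results was not tested. Over all genes, 20.2% to 36.4% rose and 18.8% to 32.5% fell against DMSO in a line and arm, beside which all counts in this paragraph stand. All 8 proliferation genes fell in the acute and DTP arms of all 4 lines, and in long washout all 8 were below DMSO in HCC827 and H1975 but 4 of 8 in PC9 and HCC2935. Of 6 heat shock genes, which respond to handling, 4 to 6 fell in the acute arm, 4 or 5 in DTPs and 3 or 4 in long washout, depending on the line, and none rose, and the part of growth and of handling in the AP-1 results was not tested.

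Levels are given as CPM, counts scaled to library size by TMM over the 60 libraries, which compare a gene between libraries, and as TPM, which are corrected for length, where genes are compared with each other. A change is a log2 fold change ± standard error from the edgeR quasi-likelihood fit of the 15 libraries of a line, and it is called at a Benjamini-Hochberg adjusted p under 0.05 over all 14663 to 15379 genes tested in that line. BATF3 was too low to be tested in HCC2935, so that 35 of the 36 pairs of a member and a line were tested in each comparison.

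**Figure D1:**
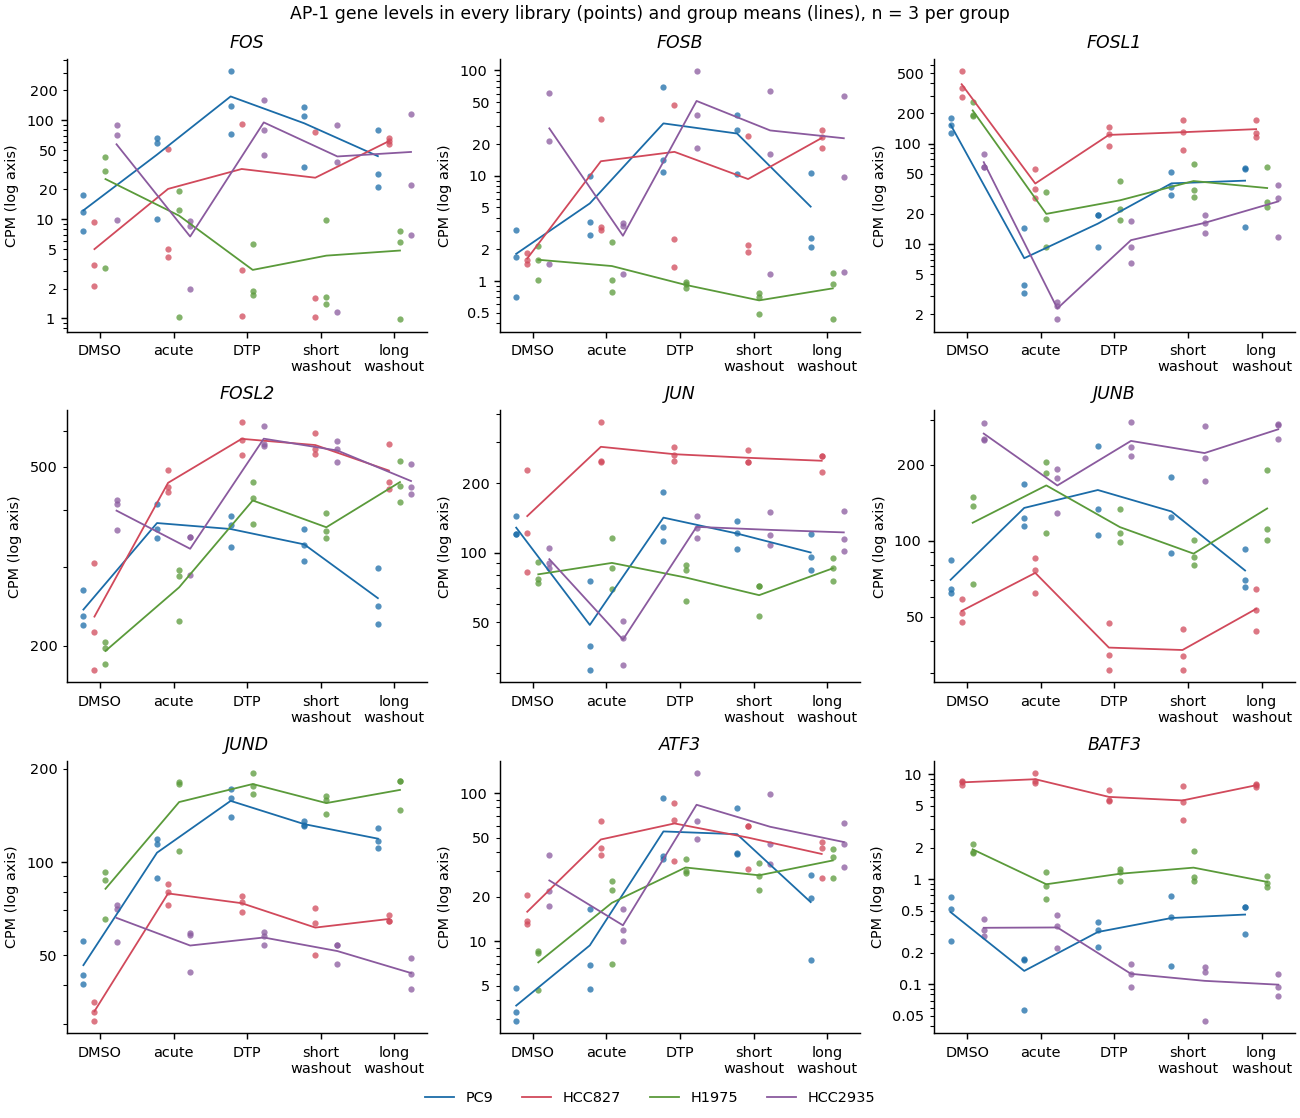
CPM on a log axis (y) of the 9 AP-1 genes in each of the 60 libraries (points) against arm (x), with group means joined by lines and 1 colour per line (n = 3 per group). FOSL1 is highest under DMSO in all 4 lines, FOSL2 and JUND keep narrow spreads, and FOS and FOSB spread over more than 10-fold within 7 and 6 of the 20 groups.

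In untreated cells the lines differed in which AP-1 genes they held. FOSL1 was the most abundant of the 9 by TPM in HCC827 (355 ± 111 TPM, SD, n = 3), H1975 (209 ± 43.2) and PC9 (126 ± 21.9). In HCC2935 JUNB was the highest (235 ± 19.6 TPM), and FOSL1 reached 71.0 ± 12.5 TPM. The level differed between the lines for 8 of the 9 members (89.4% of 16533 genes did so), with adjusted p from 7.39e-17 for BATF3 to 0.00637 for JUN, and not for FOS (adjusted p = 0.0709). For JUN the call was lost with limma on log2 TPM (adjusted p = 0.13) and with a replicate block (0.0888). FOSL1 ran in the order HCC827, H1975, PC9, HCC2935, and no neighbours in it overlapped, though the lowest H1975 library (188 CPM) lay close to the highest of PC9 (180.4 CPM). FOSL2 was higher in HCC2935 (362 to 423 CPM) than in the other lines, of which HCC827 (176 to 306) overlapped PC9 (222 to 267) and H1975 (182 to 204), and PC9 lay above H1975. JUNB was highest in HCC2935 (249 to 293 CPM) and lowest in HCC827 (47.6 to 59.0), with H1975 and PC9 overlapping between them. JUND was lowest in HCC827 (30.7 to 35.4 CPM), below PC9 (40.4 to 55.8), and the libraries of the 3 other lines overlapped from neighbour to neighbour. ATF3 was lower in PC9 and H1975 (overlapping ranges, 2.89 to 4.82 and 4.66 to 8.6 CPM) than in HCC827 (13.1 to 20.6) and HCC2935 (17.3 to 38.1), which also overlapped. BATF3, a partner of JUN proteins best known from dendritic cells, was at 7.89 to 8.68 CPM in HCC827, 1.79 to 2.18 in H1975 and below 1 CPM in the other lines.

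Acute osimertinib gave 24 calls among the 35 pairs of a member and a line tested, 13 upwards and 11 downwards. In PC9, 5 members rose and 3 fell, where 35.5% and 30.7% of all genes did. In HCC827, 5 rose and 1 fell (20.2% and 18.8% of all genes), and in H1975 3 rose and 2 fell (28.6% and 23.1%). In HCC2935 none rose and 5 of 8 fell (23.6% and 23.1% of all genes). The median log2 fold change of the members was 0.94 in PC9, 1.00 in HCC827, 0.16 in H1975 and -1.08 in HCC2935, beside 0.09, 0.05, 0.11 and 0.05 over all genes. The persisters held 22 calls against DMSO, 16 upwards and 6 downwards. In DTP libraries 6 members were higher and 1 lower in PC9 (36.4% and 32.5% of all genes), 4 and 1 in HCC827 (22.4% and 21.0%), 3 and 3 in H1975 (27.5% and 24.2%) and 3 and 1 in HCC2935 (26.3% and 26.3%). The members' medians were then 1.18, 1.16, -0.06 and 0.50, beside 0.08, 0.02, 0.06 and 0.03 over all genes. The shares of members called thus ranged from below to well above those of all genes, depending on line and direction. The family was not tested as a set, and the account below is by gene.

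FOSL1, which encodes the FOS family protein FRA1, fell in all 4 lines within 24 h of osimertinib and was below DMSO in DTPs and after the long washout as well. In PC9 it was at 180.4, 127 and 154 CPM under DMSO, 3.88, 3.21 and 14.6 in the acute arm and 19.2, 9.35 and 19.2 in DTPs. In HCC827 the values were 355, 522 and 292 CPM, then 28.98, 35.0 and 55.9, then 95.2, 147 and 124. No acute or DTP library of either line reached its lowest DMSO library. In H1975 FOSL1 went from 188, 260.3 and 192 CPM to 32.7, 17.7 and 9.42 in the acute arm and 22.1, 42.4 and 17.1 in DTPs. In HCC2935 it went from 58.3, 79.5 and 57.9 CPM to 1.79, 2.63 and 2.43 and then 17.0, 9.23 and 6.5. Here too the groups did not overlap with DMSO, and in HCC2935 every DTP library lay above every acute library. The acute fall was 21.4-fold in PC9 (log2 fold change -4.42 ± 0.59, adjusted p = 1.34e-05), 9.73-fold in HCC827 (-3.28 ± 0.31, 3.22e-06), 10.7-fold in H1975 (-3.42 ± 0.49, 5.28e-05) and 28.7-fold in HCC2935 (-4.84 ± 0.43, 3.44e-07). In DTPs the remaining fall against DMSO was 9.67-fold in PC9, 3.2-fold in HCC827, 7.83-fold in H1975 and 5.96-fold in HCC2935. FOSL1 rose again from acute to DTP in HCC827 (log2 fold change 1.61 ± 0.30, adjusted p = 0.00116) and HCC2935 (2.26 ± 0.42, 0.000405), and the values did not pass the test in PC9 (1.15 ± 0.55, 0.124) or H1975 (0.45 ± 0.46, 0.47). The PC9 change passed without acute replicate 3, the library with 14.6 CPM (log2 fold change 2.17, adjusted p = 0.00817). The size of the FOSL1 change did not differ between lines past the threshold, in the acute arm (adjusted p = 0.167) or in DTPs (0.128). All 14 calls on FOSL1 held in every alternative setting and with each library left out.

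FOSL2, which encodes FRA2, the other FOS protein without an activation domain of the FOS kind, moved the other way in 3 lines, by smaller factors. In HCC827 it was at 214, 306 and 176 CPM under DMSO, 452, 439 and 492 in the acute arm and 531, 573 and 628 in DTPs. In PC9 the values were 267, 233 and 222 CPM, then 348, 364 and 413, then 388, 331 and 371. In H1975 they were 182, 204 and 198 CPM, then 286, 295 and 228, then 427, 374 and 463. In these 3 lines every acute and every DTP library lay above every DMSO library. The acute rise was 1.99-fold in HCC827 (log2 fold change 0.99 ± 0.16, adjusted p = 0.000223), 1.56-fold in PC9 (0.64 ± 0.11, 0.000146) and 1.39-fold in H1975 (0.47 ± 0.11, 0.00327). In HCC2935 the DMSO libraries held 423, 414 and 362 CPM, the acute libraries 349, 349.6 and 287 and the DTPs 616, 556 and 563. This line thus showed a small acute fall (log2 fold change -0.28 ± 0.10, adjusted p = 0.0268) followed by a level above DMSO in DTPs (0.53 ± 0.10, 0.000272). The acute fall was lost without acute replicate 3 or DMSO replicate 1 or 2 (adjusted p = 0.0835 to 0.125), in the fit of the 6 libraries (0.0523) and in the fit of all 60 (0.0711). In DTPs FOSL2 was 2.49-fold above DMSO in HCC827, 2.16-fold in H1975, 1.51-fold in PC9 and 1.45-fold in HCC2935, all called. The 4 lines differed in the acute change (adjusted p = 2.5e-06) and in the DTP change (0.000259).

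**Figure D2:**
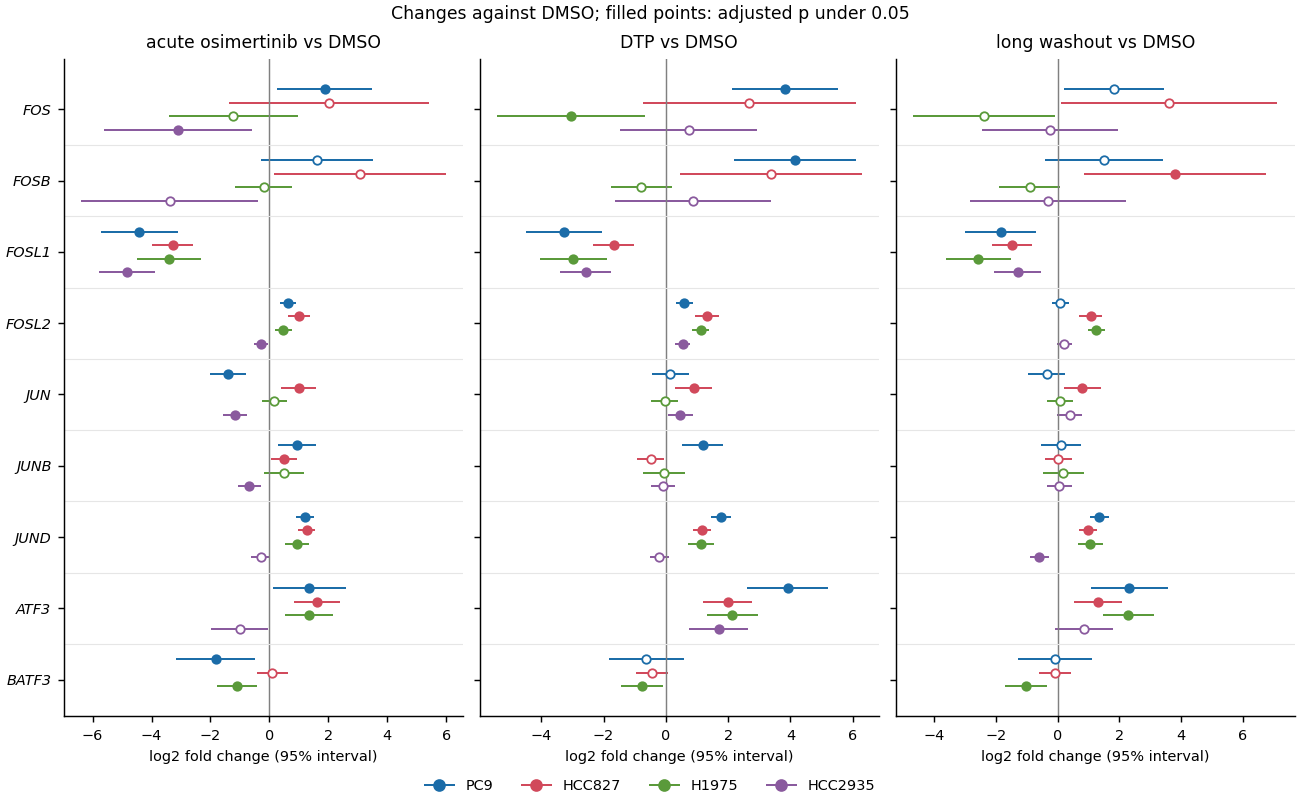
Log2 fold change against DMSO (x) of each AP-1 gene (y) in acute osimertinib, DTPs and long washout, 1 colour per line, with 95% intervals and filled points for an adjusted p under 0.05 (n = 3 per group). FOSL1 lies left of 0 in all 4 lines in each panel, from -4.84 to -1.30, while JUND lies right of 0 in 3 lines and left of it in HCC2935.

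FOS, the founding member and a sensor of fresh growth factor or stress signals, had replicates more than 10-fold apart in 7 of the 20 groups. In PC9 it was at 17.4, 7.66 and 11.9 CPM under DMSO, 65.6, 10.1 and 59.1 in the acute arm and 72.5, 138 and 309.9 in DTPs. All 3 DTP libraries lay above all 6 others (log2 fold change 3.82 ± 0.78, adjusted p = 0.000569), and this was the one FOS call that held in every alternative and with each library left out. In HCC2935 the values were 9.95, 71.4 and 89.9 CPM, then 1.96, 9.58 and 8.56, then 44.6, 161 and 79.1. All acute libraries of this line lay below the others, by a narrow gap to the lowest DMSO library. The acute fall in HCC2935 (log2 fold change -3.10 ± 1.17, adjusted p = 0.039) was lost when any acute library or DMSO replicate 2 or 3 was left out (adjusted p = 0.0687 to 0.126). It was also lost in the fit of all 60 libraries (0.0604), with limma on log2 TPM (0.0997) and with a replicate block (0.0603). The rise from acute to DTP there (3.83 ± 1.19, 0.0153) was lost without acute replicate 1 (adjusted p = 0.0631). In H1975 FOS held 42.2, 3.26 and 30.9 CPM, then 1.04, 19.2 and 12.4, then 1.9, 1.72 and 5.64, and in HCC827 2.12, 9.46 and 3.43, then 5.03, 4.19 and 51.6, then 1.07, 92.4 and 3.05. A single library was far above its replicates in the acute and DTP arms of HCC827, and a single DMSO library far below in H1975. The DTP fall in H1975 (log2 fold change -3.05 ± 1.09, adjusted p = 0.0298) was lost without DMSO replicate 1 or 3 or DTP replicate 1 or 2 (adjusted p = 0.0642 to 0.0975). It was also lost in the fit of all 60 (0.0602) and with limma on log2 TPM (0.0744). In HCC827 neither change passed (2.02 ± 1.57, adjusted p = 0.337 and 2.68 ± 1.59, 0.19), with 95% intervals of -1.34 to 5.37 and -0.71 to 6.07. In PC9 the acute rise (log2 fold change 1.87 ± 0.74, adjusted p = 0.0367) was lost without acute replicate 1 or 3 or DMSO replicate 2 or 3 (adjusted p = 0.0881 to 0.121), and the rise from acute to DTP (1.95 ± 0.72, 0.0484) without any of the acute libraries or DTP replicate 2 or 3 (adjusted p = 0.0608 to 0.234). Both PC9 calls were also lost in the fit of all 60 (0.205 and 0.253), and the acute call with limma on log2 TPM (0.106).

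FOSB, the closest relative of FOS and likewise an immediate-early gene, was called in the same direction as FOS in DTPs of PC9. In the acute arm no FOSB change was called, with 3.07 (adjusted p = 0.0849) in HCC827, 1.61 (0.12) in PC9 and -0.20 (0.72) in H1975. The fit of the 6 libraries called it in HCC827 (0.0214) and PC9 (0.0374), and DESeq2 in HCC827 (0.0443). In PC9 it went from 3.03, 0.705 and 1.71 CPM under DMSO to 10.9, 14.3 and 69.1 in DTPs (log2 fold change 4.14 ± 0.90, adjusted p = 0.000901). In HCC827 the DTP libraries held 1.37, 46.7 and 2.5 CPM against 1.6, 1.86 and 1.44 under DMSO, and the change was not called (3.36 ± 1.35, 0.0573). It was called with DESeq2 (0.0231), in the fit of all 60 (0.0291), in that of the 6 libraries (0.0488) and without DTP replicate 1 (0.0270) or 3 (0.0370). Replicate 2 of the HCC827 DTPs, the library highest in FOS, was again far above the others. In HCC2935 FOSB went from 1.44, 21.4 and 61.7 CPM under DMSO to 1.16, 3.35 and 3.57 in the acute arm (log2 fold change -3.39 ± 1.40, adjusted p = 0.0571) and 18.3, 97.8 and 37.9 in DTPs. The rise from acute to DTP in HCC2935 (4.26 ± 1.42, 0.0224) was lost without any of the acute libraries or DTP replicate 2 (adjusted p = 0.0569 to 0.0806), and that in PC9 (2.53 ± 0.81, 0.0265) without acute replicate 1 or 2 or DTP replicate 3 (adjusted p = 0.0926 to 0.245). The PC9 call was also lost in the fit of all 60 (0.0943). In H1975 FOSB stayed between 0.435 and 2.36 CPM in all 15 libraries.

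JUN, the partner through which most FOS proteins reach DNA, differed in direction between lines in the acute arm. In PC9 it was at 145, 120.1 and 120.2 CPM under DMSO, 39.3, 31.0 and 75.6 in the acute arm and 112, 129 and 184 in DTPs. In HCC2935 the values were 90.4, 105 and 85.8 CPM, then 42.6, 50.7 and 32.7, then 128, 144 and 116. In both lines the acute libraries lay below all DMSO and all DTP libraries. JUN fell 2.64-fold in PC9 (log2 fold change -1.40 ± 0.27, adjusted p = 0.000358) and 2.23-fold in HCC2935 (-1.16 ± 0.17, 5.5e-05). In HCC827 it went from 122, 228 and 82.6 CPM to 246, 249.5 and 367 and 288, 264 and 249, a 2.0-fold acute rise (1.00 ± 0.26, 0.00799), and every acute and DTP library was above every DMSO library. In H1975 the acute change was 0.16 ± 0.18 (0.471), with a 95% interval of -0.23 to 0.55. The lines differed in the acute change (adjusted p = 6.23e-07) and in the change from acute to DTP (3.41e-06). Against DMSO, the DTPs of HCC827 (0.89 ± 0.26, 0.0132) and HCC2935 (0.47 ± 0.17, 0.0297) were higher, and PC9 and H1975 gave 0.14 and -0.05, neither called. The HCC827 call was lost without DMSO replicate 1 (adjusted p = 0.0564), and the HCC2935 call without DMSO replicate 1 or 3 or DTP replicate 1 or 2 (adjusted p = 0.0534 to 0.111). The HCC2935 call was also lost in the fit of all 60 (0.122).

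JUNB, a JUN protein that often opposes JUN on shared sites, changed by smaller factors. In PC9 it was at 83.5, 62.0 and 64.5 CPM under DMSO, 122, 114 and 167 in the acute arm and 105, 133 and 238 in DTPs, and it rose in both (0.94 ± 0.29, 0.01, and 1.18 ± 0.29, 0.00227). In HCC2935 it was at 249, 293 and 253 CPM, then 191, 176 and 128, then 215, 294 and 235, so that all acute libraries stood below all DMSO libraries (-0.68 ± 0.17, 0.00413). The rise from acute to DTP in HCC2935 (0.59 ± 0.17, 0.0114) was lost without acute replicate 3 or DTP replicate 2 (adjusted p = 0.0617 to 0.0623) and in the fit of all 60 (0.0783). In HCC827 JUNB went from 59.0, 47.6 and 51.6 CPM to 76.6, 61.8 and 85.3 and 35.3, 47.2 and 30.8. All DTP libraries of HCC827 lay below all acute libraries (log2 fold change -0.98 ± 0.19, adjusted p = 0.00159), the only call downwards among the members from acute to DTP. The acute rise in HCC827 (0.50 ± 0.19, 0.0471) was lost without acute replicate 1 or 3 or DMSO replicate 2 or 3 (adjusted p = 0.102 to 0.167). With all libraries kept, it was also lost in the fit of all 60 (0.146), with limma on log2 TPM (0.0537) and with a replicate block (0.0677). TMM within the line (0.0532) and no filter (0.051) lost it as well. In H1975 no JUNB change against DMSO was called, with 0.49 ± 0.30 in the acute arm and -0.06 ± 0.30 in DTPs.

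JUND, the steadier JUN protein, rose in PC9, HCC827 and H1975 and not in HCC2935. In PC9 it was at 40.4, 55.8 and 43.3 CPM under DMSO, 88.6, 119.2 and 114 in the acute arm and 172, 139.8 and 161 in DTPs. In HCC827 the values were 32.9, 30.7 and 35.4 CPM, then 79.9, 85.0 and 72.8, then 77.6, 74.3 and 69.2, and in H1975 65.5, 92.8 and 87.9, then 181, 179 and 109, then 167, 176 and 194. Every acute and DTP library of these 3 lines lay above every DMSO library of its line. The acute rise was 2.31-fold in PC9 (log2 fold change 1.21 ± 0.13, adjusted p = 1.82e-06), 2.4-fold in HCC827 (1.26 ± 0.12, 2.81e-06) and 1.91-fold in H1975 (0.93 ± 0.17, 0.000455). In DTPs JUND was 3.39-fold above DMSO in PC9, 2.23-fold in HCC827 and 2.18-fold in H1975, and between acute and DTP it rose further in PC9 alone of the 4 lines (log2 fold change 0.56 ± 0.13, adjusted p = 0.00423). In HCC2935 the DMSO libraries held 72.6, 70.5 and 55.1 CPM, the acute libraries 59.1, 58.0 and 44.2 and the DTPs 59.6, 57.9 and 53.8. Neither change was called in this line (-0.30 ± 0.13, 0.0747, and -0.21 ± 0.13, 0.193), and the intervals, -0.58 to -0.02 and -0.49 to 0.07, reach no rise above 0.07 on the log2 scale. The acute value was called without DMSO replicate 3 (adjusted p = 0.0194). The lines differed in the acute change (adjusted p = 9.73e-08), in the DTP change (1.17e-09) and in the change from acute to DTP (0.0403). All 11 calls on JUND held in every alternative and with each library left out.

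ATF3, a stress-induced partner of JUN proteins that often represses its targets, was higher in the persisters of all 4 lines. In PC9 it was at 4.82, 3.31 and 2.89 CPM under DMSO, 4.74, 6.93 and 16.4 in the acute arm and 37.3, 35.9 and 92.0 in DTPs. In H1975 the values were 4.66, 8.32 and 8.6 CPM, then 22.1, 25.3 and 6.97, then 35.7, 29.01 and 29.6. In HCC827 they were 20.6, 13.7 and 13.1 CPM, then 42.7, 38.2 and 64.8, then 65.8, 86.3 and 34.9, and in no line did a DTP library reach down into the DMSO range. In HCC2935 ATF3 went from 17.3, 21.8 and 38.1 CPM to 9.95, 16.5 and 11.9 and 65.2, 136 and 48.9, with the acute libraries below all DMSO libraries (log2 fold change -1.01 ± 0.44, adjusted p = 0.073). The DTP rise was 15.04-fold in PC9 (log2 fold change 3.91 ± 0.59, adjusted p = 3.88e-05), 4.37-fold in H1975 (0.000251), 3.95-fold in HCC827 (0.0004) and 3.25-fold in HCC2935 (0.00338), and all 4 calls held in every alternative. Its size differed between lines (adjusted p = 0.0199), as did the acute change (0.00494). The acute rise was called in HCC827 (1.62 ± 0.35, 0.00204), H1975 (1.34 ± 0.36, 0.00675) and PC9 (1.35 ± 0.57, 0.0477). The H1975 call ended in the fit of the 6 libraries (0.0505), and the PC9 call without acute replicate 3 or any of the DMSO libraries (adjusted p = 0.0557 to 0.316), where the log2 fold change without acute replicate 3 was 0.68. With all libraries kept, the PC9 call also ended with DESeq2 (0.0516), TMM within the line (0.0512), library size only (0.0533) and limma on log2 TPM (0.0852).

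BATF3 was low outside HCC827, where it held 8.68, 7.89 and 8.48 CPM under DMSO, 8.15, 10.2 and 8.52 in the acute arm and 5.64, 7.03 and 5.55 in DTPs, with no change called although all DTP libraries lay below all DMSO libraries. In H1975 it went from 1.79, 1.8 and 2.18 CPM to 0.852, 1.18 and 0.654 (log2 fold change -1.10 ± 0.31, adjusted p = 0.00764) and 0.971, 1.16 and 1.25 in DTPs. The DTP call in H1975 (-0.77 ± 0.30, 0.0442) was lost when any 1 of the 6 libraries was left out (adjusted p = 0.0602 to 0.13). It was also lost in the fit of the 6 libraries (0.0514), without a filter (0.053) and with a replicate block (0.0611). In PC9 the acute libraries held 0.0575, 0.176 and 0.169 CPM, from 2 to 7 counts each, below 0.515, 0.682 and 0.26 under DMSO (log2 fold change -1.83 ± 0.61, adjusted p = 0.0155), and that call was lost without acute replicate 1 or DMSO replicate 2 (adjusted p = 0.0668 to 0.0701).

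By TPM, the make-up of the FOS family turned from FOSL1 towards FOSL2 in PC9, HCC827 and H1975, and towards FOS in PC9. Under DMSO FOSL1 made up 87.1 ± 0.321% of the summed FOS family TPM in HCC827 (SD, n = 3), 74.8 ± 8.13% in H1975, 69.5 ± 1.58% in PC9 and 29.6 ± 6.89% in HCC2935. In HCC2935 FOSL2 already had the largest mean share under DMSO, 41.5 ± 14.2%, though FOS was above FOSL2 in replicate 3. In the acute arm the share of FOSL1 was 23.4 ± 2.02%, 21.0 ± 10.8%, 4.79 ± 3.19% and 2.72 ± 0.513%, in the same order of lines. FOSL2 then made up the largest mean share in all 4 lines, from 63.2 ± 18.5% in PC9 to 87.5 ± 6.28% in HCC2935. In HCC2935 this larger share came without a rise of FOSL2 itself, as given above. In DTPs FOSL2 had the largest mean in H1975 (75.4 ± 8.93%) and HCC2935 (51.8 ± 15.1%), and in HCC827 FOSL2 and FOSL1 had like shares (46.6 ± 12.2% and 42.5 ± 4.65%). In the DTPs of PC9 FOS had the largest mean, with 56.9 ± 15.3%. These DTP orders were not shared by all libraries, since FOSL2 was above FOS in PC9 replicate 1, FOS above FOSL2 in HCC2935 replicate 2 and FOSL1 above FOSL2 in HCC827 replicate 2. Under DMSO in HCC827, JUN was above JUNB by share in replicate 2, level with it in replicate 1 and below it in replicate 3. The summed FOS family went in the acute arm from 408 ± 129 to 160.0 ± 57.9 TPM in HCC827, from 277 ± 26.6 to 86.6 ± 14.2 in H1975, from 181 ± 29.9 to 111 ± 34.2 in PC9 and from 249 ± 65.1 to 90.1 ± 5.84 in HCC2935, and the ranges of the 2 arms did not overlap in any line. The summed JUN family had a higher mean after the same step in PC9 (128 ± 9.17 to 192 ± 34.8 TPM), HCC827 (122 ± 23.6 to 240.3 ± 33.3) and H1975 (208 ± 25.5 to 315 ± 39.4) and a lower one in HCC2935 (351 ± 24.8 to 222 ± 29.1). These sums are given as descriptions, without a test. Within the JUN family, JUND went from 31.3 ± 6.06% to 48.4 ± 9.68% from DMSO to DTPs in PC9 and from 41.1 ± 11.5% to 60.5 ± 4.68% in H1975, JUN went from 40.6 ± 13.7% to 49.3 ± 1.89% in HCC827, and JUNB was the largest in every DMSO and DTP library of HCC2935 (67.0 ± 2.4% to 64.3 ± 3.16%).

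**Figure D3:**
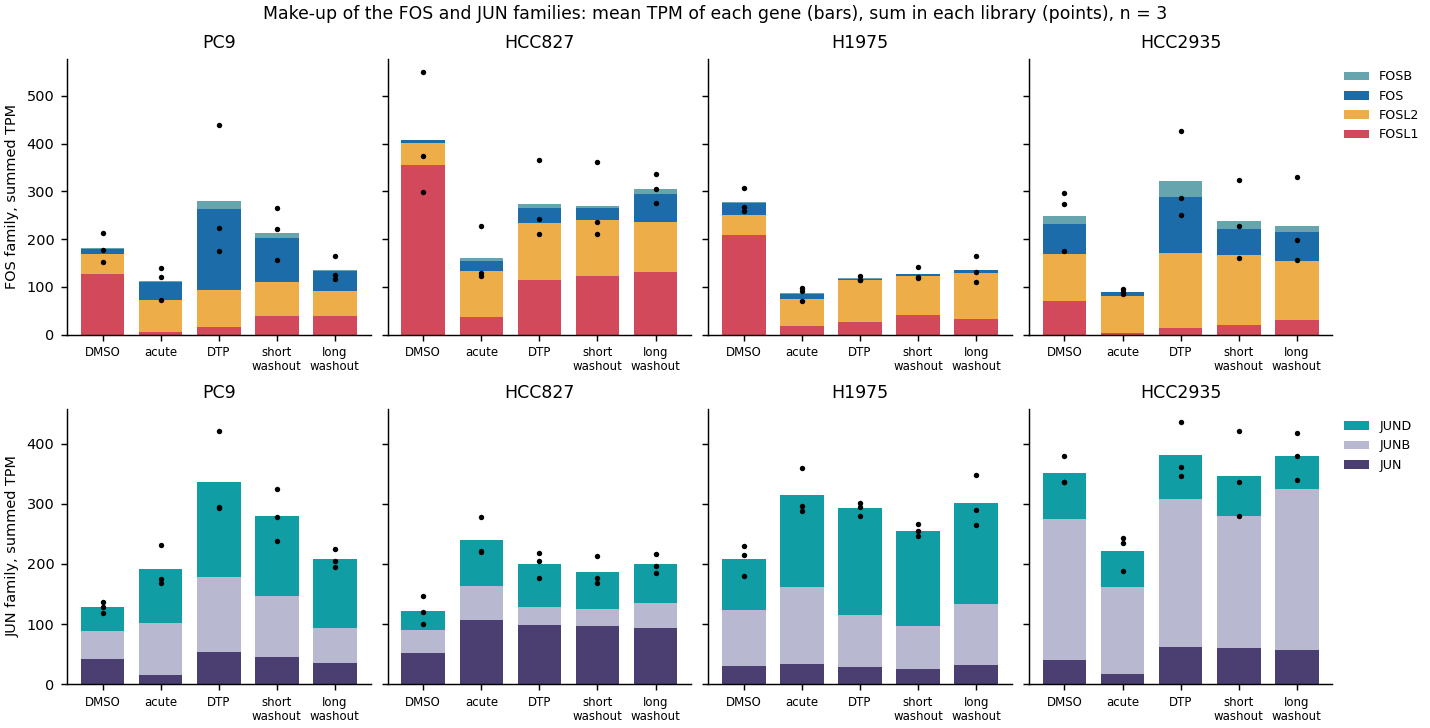
Mean TPM of each gene (stacked bars) in the FOS family (top) and JUN family (bottom) by arm (x) in the 4 lines, with the family sum of each library as a point (n = 3). FOSL1 holds most of the FOS family under DMSO in PC9, HCC827 and H1975, and FOSL2 holds the largest mean share in the acute arm of all 4 lines.

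Between acute treatment and persistence, 14 of the 35 pairs of a member and a line rose and 1 fell. HCC2935 had 7 of 8 higher (23.0% of all genes higher and 21.4% lower), PC9 5 of 9 higher (16.0% and 17.9%), HCC827 1 higher and 1 lower (16.2% and 13.3%) and H1975 1 higher (19.3% and 18.4%). The 7 in HCC2935 were FOS, FOSB, FOSL1, FOSL2, JUN, JUNB and ATF3, and JUND was not called (0.09 ± 0.13). Those of FOS, FOSB and JUNB depended on single libraries, and that of JUNB also on the fit, as given above. In H1975 the single rise was FOSL2 (log2 fold change 0.64 ± 0.11, adjusted p = 0.000751), and in HCC827 the rise was FOSL1. JUN rose from acute to DTP by 1.55 ± 0.27 in PC9 and 1.62 ± 0.18 in HCC2935, back to or above its DMSO level. ATF3 rose by 2.56 ± 0.54 in PC9 and 2.71 ± 0.45 in HCC2935, past its DMSO level in both.

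The short washout, 24 h without drug, gave no call on any member in any line. Over all genes, 3.65% were higher and 2.15% lower than in DTPs in PC9, 2.25% and 0.830% in HCC2935, 0.0715% and 0% in H1975 and 0% and 0% in HCC827. FOSL1 came nearest, at 37.1, 52.4 and 31.0 CPM in PC9 after 19.2, 9.35 and 19.2 in DTPs, with all 3 washout libraries above all DTP libraries (log2 fold change 1.33 ± 0.53, adjusted p = 0.135). At an unadjusted p under 0.05, 2 of the 35 tests passed, FOSL1 in PC9 and JUND in HCC827. In the fit of the 6 libraries alone, FOSL1 (0.0103) and JUND (0.0478) were called in PC9, and DESeq2 called none in any line. In H1975 and HCC827 the same replicate numbers deviated together between DTPs and short washout, and with the number as a block in the 6 libraries, FOSL1 rose in H1975 by 0.66 (34.8, 63.1 and 29.1 CPM after 22.1, 42.4 and 17.1, adjusted p = 0.0013) and JUN changed by -0.25 (0.0392), with 1682 genes called in place of 11. In HCC827, where edgeR called 0 genes with 300 at an unadjusted p under 0.05 and DESeq2 called 0, that block called 2 genes and no member. The 95% interval of FOSL2 in HCC827 was -0.38 to 0.29 and that of ATF3 -1.03 to 0.39.

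After the long washout 10 of the 35 pairs of a member and a line were above DMSO and 6 below. FOSL1 was below DMSO in all 4 lines, with log2 fold change -2.57 ± 0.47, adjusted p = 0.000381 after 3 days in H1975, -1.85 ± 0.52 (0.0105) after 7 days in PC9, -1.49 ± 0.29 (0.000943) after 4 days in HCC827 and -1.30 ± 0.35 (0.00677) after 10 days in HCC2935. In PC9 the long washout libraries held 57.7, 55.7 and 14.7 CPM, in HCC827 117, 128 and 172, in H1975 23.5, 26.3 and 58.4 and in HCC2935 11.9, 39.0 and 28.7, none of them as high as a DMSO library of the line. JUND was above DMSO in PC9 (1.36 ± 0.13), H1975 (1.06 ± 0.17) and HCC827 (0.99 ± 0.12) and below it in HCC2935 (log2 fold change -0.59 ± 0.13, adjusted p = 0.00185), and the lines differed (adjusted p = 5.34e-10). In HCC2935 JUND held 49.1, 38.8 and 43.6 CPM after washout, all below the DMSO range. FOSL2 was above DMSO in H1975 (419, 453 and 516 CPM, 1.25 ± 0.12) and HCC827 (462, 563 and 447, 1.08 ± 0.16), and in PC9 it was back among the DMSO libraries (245, 223 and 297, 0.08 ± 0.11, 0.563). ATF3 was above DMSO in PC9 (2.32 ± 0.57), H1975 (2.29 ± 0.37) and HCC827 (1.30 ± 0.35) and not called in HCC2935 (0.86 ± 0.43, 0.112). FOS held 65.4, 57.7 and 61.2 CPM in HCC827, close together and all above DMSO (log2 fold change 3.61 ± 1.63, adjusted p = 0.0888), and FOSB there held 18.2, 23.4 and 26.9 (3.80 ± 1.37, 0.0365), a call lost when any 1 of the 6 libraries was left out (adjusted p = 0.0538 to 0.0964). In HCC827 FOS passed in the fit of the 6 libraries (0.000236), with a replicate block in them (0.000841), in the fit of all 60 (0.0316) and with a replicate block in the 15 (0.0259). In PC9 FOS was not called, but it was in some settings, such as the 6 libraries (1.82, adjusted p = 0.0312) and DESeq2 (1.80, 0.0495). In H1975 it was called, as lower, only with a replicate block in the 15 libraries (-2.87, 0.0422) and without DMSO replicate 2 (-2.92, 0.0246). In HCC2935 no setting called it. JUN was above DMSO in HCC827 (0.80 ± 0.26, 0.0245), a call lost without DMSO replicate 1 or 3 or long washout replicate 2 or 3 (adjusted p = 0.0592 to 0.0898) and in the fit of the 6 libraries (0.0603). BATF3 was below DMSO in H1975 (-1.03 ± 0.31, 0.0107). By line, 2 members were higher and 1 lower in PC9 (23.6% and 21.1% of all genes), 5 and 1 in HCC827 (21.7% and 20.7%), 3 and 2 in H1975 (28.8% and 24.8%) and 0 and 2 in HCC2935 (21.3% and 22.4%).

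The 4 lines differed in the acute change for 7 of the 9 members, where 41.6% of all genes differed, and in the DTP change for 6 of 9 (64.1% of genes). They differed in the change from acute to DTP for 6 of 9 (54.5%), in the long washout against DMSO for 5 of 9 (57.3%) and in the short washout for none (0.0121%). FOSL1 was the only member that differed in none of these 5 comparisons, with adjusted p from 0.128 to 0.86, although its acute fall ranged from -4.84 to -3.28. A test that misses its threshold does not show that the lines respond alike. In the acute arm of HCC2935 the same replicate numbers deviated together weakly (r from 0.132 to 0.367). With the replicate number as a block in the 6 libraries, 8 members were called in place of 5, all lower. This added FOSB (-2.86, adjusted p = 0.00192), ATF3 (-0.96, 0.00625) and JUND (-0.30, 0.0125). The block was added after the data were seen, on the correlations of these same libraries, so that the added calls are no independent support.

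Among the members, the spread between replicates was widest for FOS and FOSB. Within groups the SD of log2(CPM + 1) was 1.63 for FOS and 1.35 for FOSB, beside a median of 0.185 over 13805 genes, and both lay at the 99.99th percentile. The wide spread was not particular to them. EGR1, another immediate-early gene, had an SD of 1.75, and DUSP1 had 0.680, at the 99.67th percentile. FOSL2 (0.158), BATF3 (0.173) and JUND (0.185) lay at or below that median, JUN (0.315) and JUNB (0.346) above it, and FOSL1 (0.589) and ATF3 (0.585) at the 99.3rd percentile. For BATF3, low outside HCC827, the added 1 narrows this SD, and its highest library was up to 4.62 times the lowest of its group. That ratio reached 1.73 for FOSL2 and 1.67 for JUND. The highest FOS library was up to 86.6 times the lowest of its group, in HCC827 DTPs. In 14 of the 20 groups the library with the most FOS was also the one with the most FOSB, and in 14 the one with the most ATF3, where the median gene shared it in 7. The count was 13 for JUN, 12 for JUNB, 11 for FOSL2, 8 for FOSL1 and BATF3 and 3 for JUND. Of the 12 other immediate-early genes counted, the library was shared in 10 to 17 groups, from IER5 in 10 to DUSP1, a phosphatase that dampens MAP kinases, in 17, with EGR1, a zinc finger factor, in 16. IER5 and DUSP1 were named after their values were seen, as was DUSP1 for the plot of deviations. Over the 60 libraries the deviation of FOS from its group mean went with that of EGR1 (r = 0.90), FOSB (0.87), DUSP1 (0.74), JUNB (0.62), ATF3 (0.43) and JUN (0.40), and less with FOSL2 (0.16), FOSL1 (-0.01) and JUND (-0.31), as a description of libraries that come in 20 groups of 3. In HCC827, replicate 2 was the one with high FOS in DTPs (1.07, 92.4 and 3.05 CPM) and again in the short washout (1.05, 76.2 and 1.6), where EGR1 held 4.07, 148 and 4.72 CPM and 1.71, 113 and 3.86. EGR1, first of the immediate-early genes listed, was not called in DTPs against DMSO in HCC827 (-0.21 ± 1.49, adjusted p = 0.926) or PC9 (1.96 ± 1.09, adjusted p = 0.122). The cause of this spread was not tested.

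**Figure D4:**
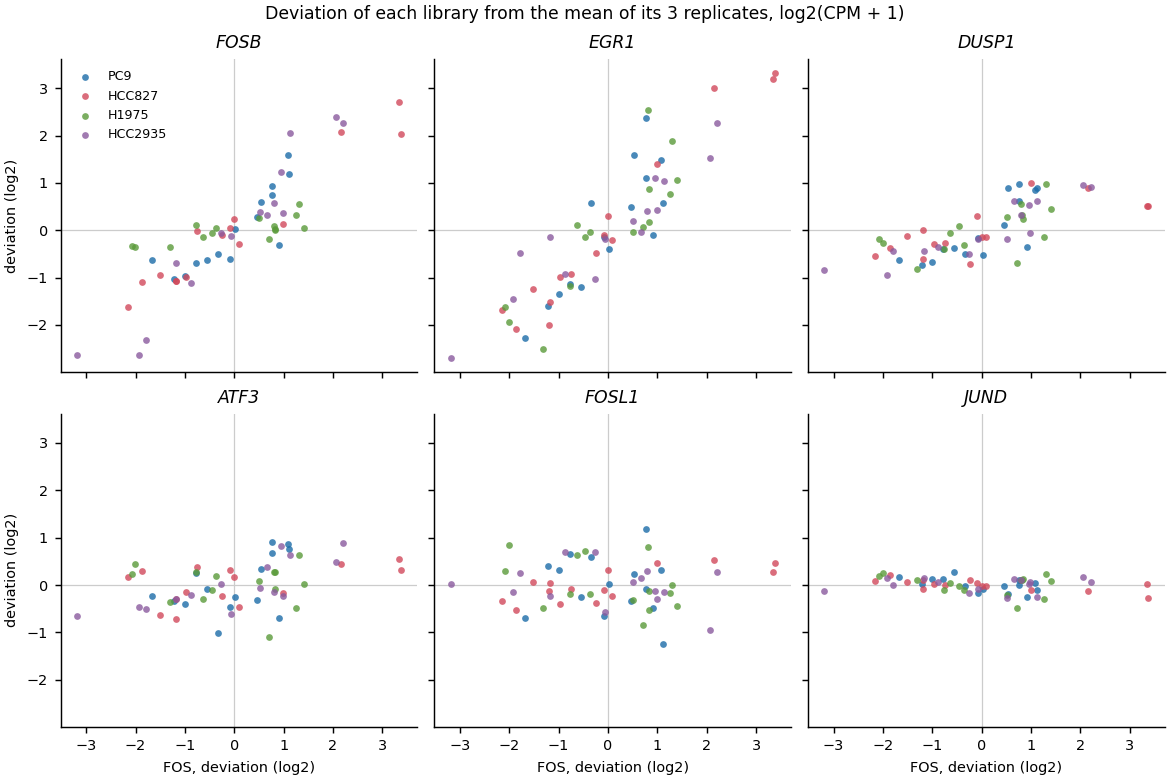
Deviation of each of the 60 libraries from the mean of its 3 replicates in log2(CPM + 1), with FOS on the x axis of each panel and FOSB, EGR1, DUSP1, ATF3, FOSL1 or JUND on the y axis, 1 colour per line. FOSB and EGR1 rise with FOS over the whole range, and FOSL1 and JUND do not.

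Over the 20 group means, centred within each line, the genes most like FOSL1 were RAB5IF (r = 0.98), ETV5 (r = 0.98) and KCTD5 (r = 0.97), of 13796 genes. ETV5, an ETS factor and an ERK output gene, held 68.1, 67.8 and 69.3 CPM under DMSO, 2.47, 2.59 and 3.23 in the acute arm and 11.8, 5.85 and 14.5 in DTPs of PC9, a course of the same shape as that of FOSL1. FOS was most like HES1 (r = 0.85), NR4A1 (r = 0.85) and EGR1 (r = 0.77), and FOSB most like NR4A1 (r = 0.85), DUSP1 (r = 0.81) and HES1 (r = 0.79). FOSL2 was most like WLS (r = 0.94), FILIP1L (r = 0.93) and TTBK2 (r = 0.93), JUN most like KLF6 (r = 0.90), COG5 (r = 0.84) and CLIP1 (r = 0.84), and JUNB most like ZC3H12A (r = 0.89), TICAM1 (r = 0.87) and GBP3 (r = 0.84). JUND was most like GAB2 (r = 0.93), YPEL4 (r = 0.92) and ZNF641 (r = 0.92), ATF3 most like BDNF (r = 0.95), HIVEP1 (r = 0.95) and TNFAIP1 (r = 0.94), and BATF3 most like STEAP2 (r = 0.86), ZNF232 (r = 0.84) and GNB1L (r = 0.83). Among the members themselves, FOS and FOSB had the highest r (0.92, over the same 20 means), then JUND and ATF3 (0.76) and FOSL2 and ATF3 (0.75), and the lowest were FOSL2 with BATF3 (-0.68) and FOSL1 with JUND (-0.62). These values describe group means from 4 lines that share treatments, and carry no test.

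The genes around AP-1 were counted on lists, beside which 20.2% to 35.5% of all genes rose and 18.8% to 30.7% fell in the acute arm of a line, and 22.4% to 36.4% rose and 21.0% to 32.5% fell in DTPs. Of 10 ERK output genes, all 10 fell in the acute arm in PC9 and HCC2935 and 9 in HCC827 and H1975, with medians of -2.62, -3.13, -1.44 and -1.90, the direction of FOSL1. DUSP6, a phosphatase of ERK, held 41.5, 48.0 and 57.5 CPM under DMSO and 0.575, 0.352 and 1.46 in the acute arm of PC9, and in DTPs it held 1.75, 1.11 and 2.45 there but 10.7, 26.2 and 9.9 in HCC827, against 17.4, 21.4 and 21.3 under DMSO. In DTPs 5 of 10 ERK output genes were below DMSO in HCC827 and 8 to 10 in the other lines. FOSL1 had its smallest DTP fall in HCC827, though its DTP change did not differ between lines past the threshold (edgeR adjusted p = 0.128). A link between FOSL1 and these genes was not tested. Of 13 kinases and factors upstream of AP-1, 1 to 3 rose and 4 to 6 fell in the acute arm, near or below the shares of all genes for rises and near or above them for falls, with medians from -0.36 to -0.10. Of these, MAPK3, which encodes ERK1, rose in the acute arm of all 4 lines, from 0.49 ± 0.10, adjusted p = 0.00115 in HCC2935 to 1.15 ± 0.09, adjusted p = 1.11e-07 in PC9. Of 15 other immediate-early genes, 10 rose and 1 fell of 15 tested in DTPs of PC9, 4 rose and 1 fell of 14 in HCC827, 5 rose and 3 fell of 15 in H1975 and 6 rose and 3 fell of 15 in HCC2935. In the acute arm of HCC2935, 8 of the 15 fell and 1 rose, with a median of -1.02. Of 10 other AP-1 and basic leucine zipper partners, 4 to 6 rose and 0 to 2 fell in DTPs of each line. JDP2, a partner of JUN proteins that represses AP-1 sites, rose in DTPs of PC9 (1.88 ± 0.09, adjusted p = 1.62e-08), H1975 (0.84 ± 0.27, adjusted p = 0.018) and HCC2935 (0.50 ± 0.13, adjusted p = 0.00494), and gave 0.56 ± 0.24, adjusted p = 0.0696 in HCC827. Of 7 genes of the integrated stress response, which induces ATF3, 6 rose and 0 fell of 7 in DTPs of H1975, 4 rose and 1 fell of 7 in PC9, 3 rose and 0 fell of 7 in HCC2935 and 2 rose and 2 fell of 7 in HCC827.

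Of 16 textbook AP-1 target genes, 1 rose and 5 fell of 12 tested in the acute arm of PC9, 5 rose and 2 fell of 14 in HCC827, 2 rose and 3 fell of 15 in H1975 and 1 rose and 11 fell of 14 in HCC2935. Over all genes 35.5% rose and 30.7% fell in PC9, 20.2% and 18.8% in HCC827, 28.6% and 23.1% in H1975 and 23.6% and 23.1% in HCC2935. The medians of the targets were -0.02, 0.20, -0.10 and -1.81, the lowest in HCC2935, where 5 of 8 AP-1 members fell and none rose. A link between targets and members was not tested. In DTPs 2 rose and 5 fell of 12 in PC9, 6 rose and 4 fell of 14 in HCC827, 2 rose and 8 fell of 15 in H1975 and 4 rose and 7 fell of 14 in HCC2935, with medians of -0.29, 0.85, -0.71 and -0.43. All genes then gave 36.4% and 32.5% in PC9, 22.4% and 21.0% in HCC827, 27.5% and 24.2% in H1975 and 26.3% and 26.3% in HCC2935. PLAU, the urokinase plasminogen activator, fell in DTPs of all 4 lines, from -0.56 ± 0.17, adjusted p = 0.0103 in PC9 to -2.24 ± 0.27, adjusted p = 4.38e-06 in HCC2935. MMP1, an interstitial collagenase, fell in the acute arm of HCC2935 (-3.59 ± 0.43, adjusted p = 5.74e-06). It gave -0.73 ± 0.75, adjusted p = 0.479 in HCC827 and 0.10 ± 0.41, adjusted p = 0.861 in H1975, and was too low to be tested in PC9.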

How the data were processed

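RNA sequencing of 60 libraries (mRNA, paired-end) was analysed from 2 tables of 19712 gene symbols. The authors deposited estimated counts per gene, not normalized, and log2 TPM with a pseudocount of 0.01. Their processing notes name HISAT2 2.1.0, Salmon 0.8.2 and hg38, without their roles, and the annotation and the use of strand are not given in the sources used here. Groups, replicate numbers, dose and times came from the sample labels. The 9 members and all gene lists were chosen with earlier results of these data known.

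Estimated counts were rounded and fitted with edgeR 4.0.16 in R 4.3.3: TMM factors over the 60 libraries, the filterByExpr filter by group, and the quasi-likelihood F-test on the 15 libraries of each line, for 5 comparisons in 4 lines. Differences between lines were tested with 3 degrees of freedom in 1 fit of all 60 libraries and 20 groups. P-values were adjusted by Benjamini-Hochberg over all genes tested, with calls under 0.05. The fits were first tested on simulated data. Depth was 17.7 to 49.1 M counts. In each of 60 pairs of replicates of a group the spread, averaged over genes, was at least 8.97 times that of counting error, so no library was a copy of another of its group. Libraries of different groups were not compared in this way, and which genes depth limits was not tested. Alternatives were DESeq2 1.42.0, limma 3.58.1 on log2 TPM, other scalings and filters, other sets of libraries, a replicate block, and each library left out in turn. The block of the 6 libraries of 2 arms was added after the data were seen. Same-numbered libraries were compared by the correlation of their deviations from the group means. It was over 0.1 for every number in acute against DMSO in HCC2935 (0.132 to 0.367) and in short washout against DTPs in HCC827 (0.42 to 0.709) and H1975 (0.252 to 0.612), and in none of the other 17 comparisons. The numbers come from the sample labels, which do not say what they share.

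All 9 members are named, of every other list the first 3 genes tested could be named, and likeness is Pearson's r of group means of log2(CPM + 1). Gene positions came from GENCODE 29, promoter windows from RefSeq, and figures were drawn with Python 3.11.15 and matplotlib 3.10.9.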

Additional observations from a re-analysis of the deposited data

Results flagged for a closer look

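The change of several AP-1 genes differed between the 4 lines by a test of the difference itself (edgeR, 60 libraries, adjusted p in brackets). In the acute arm against DMSO these were FOSB (0.0147), FOSL2 (2.5e-06), JUN (6.23e-07), JUNB (0.00377), JUND (9.73e-08), ATF3 (0.00494) and BATF3 (0.00684). FOSL2, JUN, JUNB, JUND and ATF3 had their lowest or next to lowest acute value in HCC2935, where FOSL2, JUN and JUNB fell, and JUN fell in PC9 too. In DTPs against DMSO the differing genes were FOS (0.00949), FOSB (0.0421), FOSL2 (0.000259), JUNB (0.00146), JUND (1.17e-09) and ATF3 (0.0199), and in DTPs against acute FOSL2 (0.000493), JUN (3.41e-06), JUNB (0.00218), JUND (0.0403), ATF3 (0.00312) and BATF3 (0.00297). In the long washout against DMSO, where the washout lasted 3 to 10 days depending on the line, they were FOS (0.0308), FOSL2 (1.45e-07), JUN (0.0305), JUND (5.34e-10) and BATF3 (0.0334). JUND had adjusted p of 9.73e-08 in the acute arm, 1.17e-09 in DTPs and 5.34e-10 after the long washout, with rises in 3 lines in each of them and values below DMSO in HCC2935, called after the long washout. In the acute arm the HCC2935 value was called only with limma (0.0328), without DMSO replicate 3 (0.0194) and with the replicate block in 6 libraries (0.0125), which was added after the data were seen. The differences for FOSB in the acute arm and in DTPs are less firm, since limma on log2 TPM gave adjusted p = 0.116 and 0.102. The cause of these differences was not tested.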

How the results depend on the processing

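Of the 77 calls on members, 58 held under every alternative and with each library left out, among them all 14 on FOSL1 and all 11 on JUND, but 1 of 6 on FOS and 1 of 4 on FOSB and on BATF3. Of 98 changes not called, 22 were called under some alternative. No called change turned its direction.

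Most counts that moved were those of the short washout against DTPs. In PC9, 862 genes became 3214 in the fit of the 6 libraries, 1756 with DESeq2 and 2036 with the replicate block in those 6, and members called went from 0 to 2 in the 6 libraries and 1 with the block. In HCC2935, 461 genes became 920 with DESeq2 and 244 with the block in 6 libraries. In H1975, 11 genes became 0 in 6 libraries, 65 in the fit of all 60, 24 with at least 10 counts in every library, 469 with DESeq2, 62 with the replicate block in 15 libraries and 1682 with it in 6, where members went from 0 to 2. In HCC827, 0 genes became 2 with the block. The difference between lines in this comparison went from 2 genes to 9 with limma and 4 with the block, and no member was among the calls. The replicate block in 6 libraries also gave, in H1975, 4903 genes in place of 7953 and 3 members in place of 5 in the acute arm, and 3468 genes in place of 5796 from acute to DTP; in HCC2935 8 members in place of 5 in the acute arm; and in PC9 2985 genes in place of 6656 after the long washout, which were 4251 in the 6 libraries without a block. Outside the 3 comparisons in which the numbers pair, the samples share only a number. With limma, 4 members in place of 2 were called in the long washout of HCC2935.

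With 1 library left out, genes called ran from 86 to 414 in PC9, 0 to 529 in H1975 and 132 to 474 in HCC2935 for the short washout, under the full count without any 1 library in PC9, and in HCC2935 at 132 without DTP replicate 2 and 187 to 211 without any short washout library. In H1975, 529 were called without DTP replicate 2 and 0 without DTP replicate 1 or 3 or short washout replicate 1 or 2. Members called ran from 5 to 8 in the acute arm of PC9, 3 to 5 from acute to DTP in PC9, 3 to 5 in the acute arm of HCC2935 and 1 to 2 from acute to DTP in H1975. The member counts moved by over 1.5 times without PC9 DMSO replicate 2 (5, acute against DMSO), PC9 acute replicate 1 (3, DTP against acute), PC9 acute replicate 2 (3, DTP against acute), PC9 DTP replicate 3 (3, DTP against acute), HCC2935 acute replicate 3 (3, acute against DMSO), HCC2935 DMSO replicate 2 (3, acute against DMSO), H1975 acute replicate 1 (2, DTP against acute) and H1975 acute replicate 2 (2, DTP against acute).

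Scaling moved the share of called genes that were higher: in PC9 from 47.16% to 70.21% (library size only) and 84.42% (limma on log2 TPM) from acute to DTP, from 52.76% to 67.26% and 71.13% in the long washout and from 52.77% to 66.03% (limma) in DTPs; in HCC2935 with limma from 51.87% to 70.35%, from 49.99% to 63.16% and from 48.79% to 62.83% for the DTP against acute, DTP and long washout comparisons; and in H1975 with TMM within the line from 53.27% to 42.08% in DTPs and from 53.71% to 42.93% in the long washout. The median log2 fold change of all genes reached 0.30 in PC9 DTPs with limma, against 0.08. Depth limits BATF3 most, which had 2 to 7 counts in each acute library of PC9.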
